A study of Homo sapiens with 8 samples.

Results

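HCT-116 colorectal cancer cells had 280 distal HIF-1β binding regions that were shared with none of the prostate, breast and lung cancer lines of the same series. They were 280 of the 3837 merged binding regions of the 4 lines on the main chromosomes, 280 of the 1755 regions with a site of HCT-116 and 280 of the 705 regions with a site of HCT-116 alone. The regions were selected on measured values, namely which peak lists held a peak at a position. A site of a line was a merged region in which peaks of both of its replicates overlapped by at least 1 bp, and a region was kept when only HCT-116 had a site there and when it lay over 2 kb from every transcription start site (TSS) of a protein-coding transcript on hg19. That a region had peaks in both HCT-116 replicates and lacked a site in PC3, T47D and A549 is therefore how it was chosen and not a finding, and the peak scores below are given as a description.

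Chromatin immunoprecipitation with an antibody to HIF-1β, followed by sequencing (ChIP-seq), had been performed in PC3 prostate, T47D breast, A549 lung and HCT-116 colorectal cancer cells. All 4 lines were kept at 0.5% oxygen for 16 h, with 2 replicates each (replicates 1 and 2 of PC3 and T47D, and replicates 2 and 3 of A549 and HCT-116). No library from cells in normal oxygen, no input library and no HIF-1α or HIF-2α library was analysed here, and the peak lists carry no reads, so neither the depth of a library nor markers of a cell line could be checked. Each tissue is represented by a single line, so that a difference between HCT-116 and another line cannot be told apart from a difference between their libraries.

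HIF-1β (ARNT) is the constitutive subunit that pairs with an oxygen-regulated HIF-α subunit when oxygen falls, and the dimer binds a short DNA core at promoters and at distant enhancers of its target genes. HIF-1β is also the partner of other proteins of its family, among them the aryl hydrocarbon receptor, so that a peak does not identify the α subunit. Enhancers are used in a more cell-type-restricted manner than promoters, and AP-1, a dimer of FOS and JUN proteins, and TCF/LEF, the DNA-binding end of the Wnt pathway, are known to act at enhancers of colorectal cancer cells.

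The core that HIF dimers bind was searched as ACGTG or GCGTG on either strand. Examples from the highest-scoring regions with a core within 500 bp of the midpoint, all outside exons, are shown here around the copy nearest to the midpoint, because they carry the strongest evidence of binding. Each line gives 121 bases of GRCh37 (hg19) under the name of the nearest protein-coding gene, and the capitals mark the core, in whichever orientation it stands.
SLC2A1, chr1:43473845-43473965, plus strand: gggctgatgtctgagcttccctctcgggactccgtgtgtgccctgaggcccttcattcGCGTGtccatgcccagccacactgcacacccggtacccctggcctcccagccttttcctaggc
DNAJB12, chr10:74082031-74082151, plus strand: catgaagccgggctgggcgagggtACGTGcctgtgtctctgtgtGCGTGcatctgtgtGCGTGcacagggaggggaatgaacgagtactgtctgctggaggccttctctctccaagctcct
AL137798.1, chr1:17029162-17029282, plus strand: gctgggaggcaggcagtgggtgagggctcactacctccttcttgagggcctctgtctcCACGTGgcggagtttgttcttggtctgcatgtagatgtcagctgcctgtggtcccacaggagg
SLC39A11, chr17:70657405-70657525, plus strand: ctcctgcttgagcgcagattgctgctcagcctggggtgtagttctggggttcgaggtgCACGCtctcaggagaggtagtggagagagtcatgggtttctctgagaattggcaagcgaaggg
ROR2, chr9:94558340-94558460, plus strand: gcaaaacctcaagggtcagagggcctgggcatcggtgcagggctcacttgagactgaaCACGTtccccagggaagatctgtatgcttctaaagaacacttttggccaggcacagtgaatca
The window near AL137798.1 holds CACGTG, an E-box, which contains ACGTG on both strands and so counts as 2 copies of the core.

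The next 3 sequences are from the highest-scoring other regions outside exons in which the central 200 bp held both a core and the AP-1 motif TGAGTCA, which reads TGACTCA on the opposite strand. The capitals mark both motifs.
LRMDA, chr10:77258205-77258325, plus strand: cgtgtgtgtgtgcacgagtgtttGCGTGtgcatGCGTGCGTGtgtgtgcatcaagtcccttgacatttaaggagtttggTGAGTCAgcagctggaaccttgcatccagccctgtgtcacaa
GPR15, chr3:98275146-98275266, plus strand: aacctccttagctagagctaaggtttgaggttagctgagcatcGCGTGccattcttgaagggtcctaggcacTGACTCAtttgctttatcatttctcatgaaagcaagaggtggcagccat
PIK3R1, chr5:67730036-67730156, plus strand: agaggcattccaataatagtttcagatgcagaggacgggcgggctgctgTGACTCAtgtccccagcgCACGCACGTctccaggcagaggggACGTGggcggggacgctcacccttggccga
In the window near LRMDA the core copies stand in a simple repeat, whereas those near GPR15 and PIK3R1 do not.

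Core copies and TCF/LEF motifs (CTTTGAA or CTTTGAT, or their reverse complements) stood together in the central 200 bp of further regions, of which 2 are shown with both motifs in capitals.
SCG2, chr2:224414163-224414283, plus strand: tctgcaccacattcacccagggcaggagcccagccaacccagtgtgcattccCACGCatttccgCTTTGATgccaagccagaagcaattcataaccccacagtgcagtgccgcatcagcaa
FAM133B, chr7:92325101-92325221, plus strand: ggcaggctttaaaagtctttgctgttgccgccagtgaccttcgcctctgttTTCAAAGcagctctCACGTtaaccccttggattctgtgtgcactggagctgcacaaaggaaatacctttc

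The lists do not explain the score of a MACS peak. A higher score is taken here as a stronger peak of its list. Each list has its own depth, so that the scores of different lists are not on a common scale, and the mean of the 2 HCT-116 scores serves below only to order the regions of HCT-116. In replicate 2 the 280 regions scored from 50.4 to 2900, with a median of 142. In replicate 3 they scored from 50.1 to 1439, with a median of 77.3. The lowest score that any list holds is close to 50, so the weakest regions lay at the limit of detection in both replicates. Scores under 100 in both lists were found for 70 regions. The median of all peaks was 95.7 in the list of replicate 2 and 92.7 in that of replicate 3. Scores above that median were found for 207 of the 280 regions in replicate 2 and for 104 of 280 in replicate 3.

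Distal regions that HCT-116 shared with at least 1 other line scored higher in both replicates, with medians of 247 and 139 over 353 regions. The 425 regions of HCT-116 alone within 2 kb of a TSS had medians of 115 and 73.5. Among the distal regions of HCT-116 alone, 7 had a mean score over 500, against 0 of the 425 regions of HCT-116 alone at promoters and 61 of the 353 shared distal regions. The high end of the distal regions thus lay above a large body of weak peaks, as the plot of the scores in both replicates shows. The mean scores ran on through 500, at 605 near ROR2, 599 near LRMDA, 488 near HDAC4 and 380 near GPR15.

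**Figure D1:**
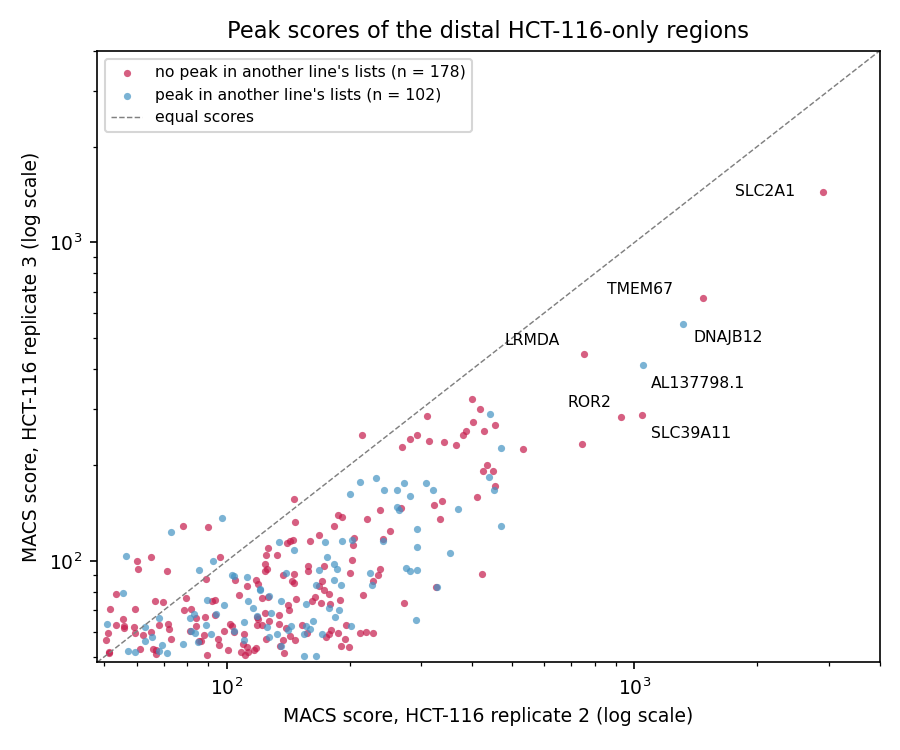
MACS score of each of the 280 distal HCT-116-only regions in replicate 2 (x axis) and replicate 3 (y axis), both on log scales, with a dashed line at equal scores as a guide only, since the lists are not on a common scale. Points are coloured by whether any list of another line held a peak in the region (102 regions) or not (178 regions), and the 7 regions with the highest mean scores carry the name of their nearest gene. Most regions lie below 500 on both axes, and the region near SLC2A1 lies farthest to the upper right.

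The highest score belonged to an intergenic region 48080 bp from the nearest TSS of SLC2A1, the gene of the glucose transporter GLUT1 and a classical HIF target. The region, chr1:43472619-43475269, had a score of 2900 in replicate 2 and of 1439 in replicate 3. It contained 9 copies of the core. Only 14 of the 3790 peaks of replicate 2 and 23 of the 1913 peaks of replicate 3 scored higher. No list of PC3, T47D or A549 held a peak that overlapped it.

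Other regions at SLC2A1 were bound in all 4 lines. At the SLC2A1 promoter the scores in HCT-116 were 399 in replicate 2 and 183 in replicate 3, and peaks of both replicates were present in PC3, T47D and A549. A region 2671 bp from the TSS, also bound in all 4 lines, scored 468 and 176 in HCT-116. A region 805 bp from a TSS was bound in PC3, A549 and HCT-116 and scored 158 and 121 in HCT-116. Of the 4 regions within 100 kb of SLC2A1, the one of HCT-116 alone was thus the highest in each HCT-116 replicate, and its gap to the nearest region bound in another line was 43458 bp.

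The third highest region, chr10:74081265-74083120, lay 21599 bp from the nearest TSS, of DNAJB12, which encodes a J-domain co-chaperone of the endoplasmic reticulum. It also lay 47587 bp from the TSS of DDIT4 (REDD1), an inhibitor of mTORC1 that hypoxia induces. Its scores were 1315 and 556, and a peak in replicate 2 of A549 with a score of 54.9 was the only one of another line to overlap it. A region bound in all 4 lines stood only 986 bp away, at chr10:74078764-74080279, and scored 548 and 321 in HCT-116. That the 2 adjacent regions differed in the lines with a site follows from how the region of HCT-116 alone was chosen. A second region of HCT-116 alone, chr10:74087351-74088582, scored 53.5 and 78.5 near the same gene. The DDIT4 promoter itself was bound in all 4 lines and scored 1256 and 757 in HCT-116.

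AHRR, the repressor of the aryl hydrocarbon receptor and itself a partner of HIF-1β, held 3 regions of HCT-116 alone within its gene body. The strongest, chr5:399264-400822, scored 417 and 300 in the 2 replicates, and no other line had a peak there. The region chr5:390854-392113 scored 128 and 68.5, held 15 copies of the core and overlapped a peak of A549 replicate 3 with a score of 52.6. The region chr5:373024-374686 scored 65.3 and 103. All 3 lay in introns, from 20213 to 29381 bp from the nearest TSS. The only other region within 100 kb of an AHRR TSS was a PC3 region that scored 63.3 and 92.4 in that line, and no site lay at the AHRR promoter in any line. The map of peaks around SLC2A1, DDIT4 and AHRR shows the 3 arrangements.

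**Figure D2:**
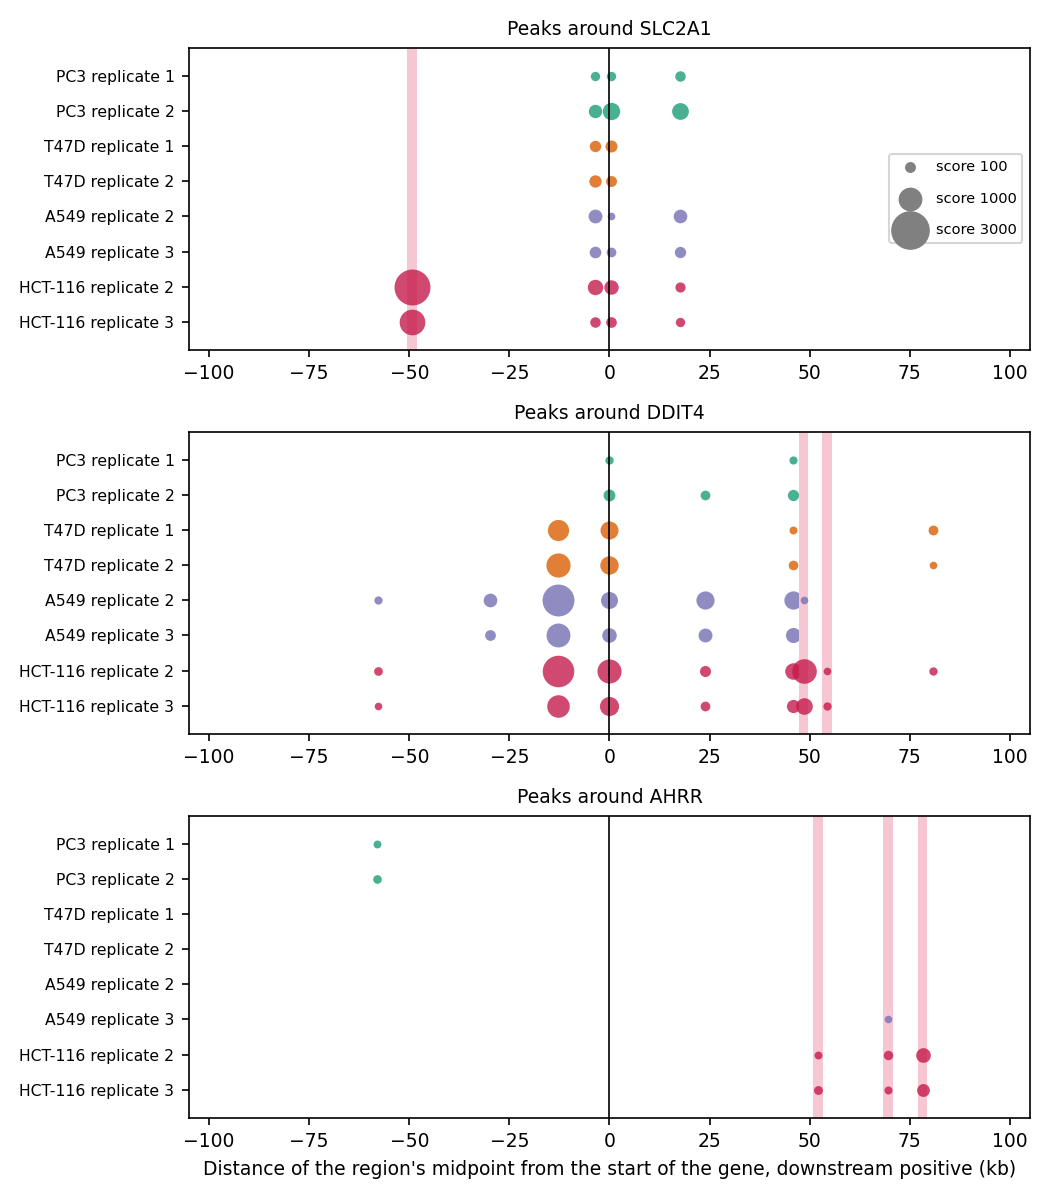
Peaks in the 8 lists around SLC2A1, DDIT4 and AHRR, plotted by the distance of each region's midpoint from the start of the gene in kb (x axis, downstream positive) and by list (y axis). Each point is a peak of a list in a region, its area rises with the MACS score (compare areas within a list only), and pink bands mark the distal regions of HCT-116 alone. Only regions with a site of some line are drawn, so a peak outside them is not shown. At SLC2A1 and DDIT4 the bands stand beside regions with peaks in all 4 lines, whereas at AHRR the 3 bands stand in the gene with no site of another line.

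Of the 20 regions with the highest mean scores, 16 had no peak in any list of another line. Among all distal regions of HCT-116 alone, 178 had no such peak (63.6%, 57.6 to 69.2), and the difference was not tested. The second highest, near TMEM67 (a protein of the ciliary transition zone), scored 1473 and 668 and held a single copy of the core. The widest, near AL137798.1, spanned 5821 bp, held 15 copies of the core and scored 1048 and 413, with a peak of PC3 replicate 2 at a score of 71.2. An intronic region of SLC39A11, a zinc transporter gene, scored 1047 and 286 at a distance of 187186 bp from its TSS.

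ROR2, NOTCH1 and WNT16 were the nearest genes of a further 3 of the 20. An intronic region of ROR2, a receptor tyrosine kinase for WNT5A, scored 928 and 283 and had a core 3 bp from its midpoint. A region 31386 bp from NOTCH1, the receptor of the Notch pathway, scored 399 and 322, although its nearest core lay 488 bp from the midpoint. A region 22344 bp from WNT16, a Wnt ligand, scored 380 and 248. These genes were named only because they were nearest to a high-scoring region, and no measurement of their expression was analysed here.

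HDAC4, PIK3R1 and ZFPM1 were also near regions of the 20. An intronic region of HDAC4, a class IIa histone deacetylase, scored 744 and 232 with 12 copies of the core. A region 139849 bp from PIK3R1, which encodes the p85α regulatory subunit of PI3 kinase, scored 441 and 289 and overlapped a peak of A549 replicate 2 with a score of 61.3. A region 8976 bp from ZFPM1, a cofactor of GATA factors, scored 455 and 266 with 11 copies of the core. The remaining 10 of the 20 were nearest to LRMDA, GPR15, EZR, LGMN, GSG1L, TBCD, ZDHHC6, IRAG1 and the already described DNAJB12 and AHRR, and the mean of their 2 scores ran from 318 for IRAG1 to 936 for DNAJB12. EZR encodes ezrin, which links actin to the membrane of epithelial microvilli, and LGMN encodes the lysosomal protease legumain.

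Few of the regions lay close together. There were 9 groups of 2 or more regions with gaps of at most 50 kb, holding 22 of the 280 regions, and 4 groups held 3. Besides AHRR, a group of 3 lay in introns of SYTL3, a synaptotagmin-like protein of vesicle trafficking, and their scores were 184 and 128, 237 and 94.5, and 471 and 226. The strongest of these was nearest to the TSS of EZR and overlapped peaks of PC3 replicate 2 and A549 replicate 3, with scores of 131 and 53.8. The other groups of 3 were intergenic. They lay near TEX44 and PTMA (prothymosin α) on chromosome 2 and near KLF14, a Krüppel-like transcription factor, on chromosome 7. The highest score in the group near PTMA was 212 and that in the group near KLF14 was 292, both in replicate 2.

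Known HIF target genes were near the regions in a few instances. Of 42 listed HIF targets, 6 (14.3%, 95% interval 5.43 to 28.5) had 1 of the regions within 100 kb of a TSS, against 655 of 19794 (3.31%) of all protein-coding genes. The 6 genes involved 7 of the 280 regions, and among them were SLC2A1, DDIT4, VEGFA, EGLN3 and ANKRD37. The region 24046 bp from VEGFA, the endothelial growth factor, scored 293 and 93.7 and overlapped a peak of PC3 replicate 2 with a score of 63.3. The VEGFA promoter was a site of T47D and HCT-116 and scored 162 and 98.3 in HCT-116. The region in an intron of EGLN3, the prolyl hydroxylase PHD3, lay 92315 bp from the nearest TSS of the gene and scored 179 and 73.4. Another 2 regions around EGLN3 were bound in all 4 lines, and the stronger scored 3100 and 2207 in HCT-116. The region near ANKRD37, an ankyrin repeat gene, lay 96305 bp from its TSS in an intron of SNX25 and scored 71.7 and 63.4. A region over the start of ANKRD37 was bound in all 4 lines and scored 3100 in both HCT-116 replicates. Of the 7 regions of HCT-116 alone, only that near SLC2A1 and the stronger near DDIT4 were therefore among the 20 highest.

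The list of genes that respond to MAPK and AP-1 signalling had 6 of 26 members (23.1%, 95% interval 8.97 to 43.6) within 100 kb of 1 of the regions, against the 3.31% of all protein-coding genes. These were FOSL2, a subunit of AP-1, the ERK inhibitor SPRY4, the cytokine LIF, and the EGF receptor ligands EREG, AREG and TGFA, with EREG and AREG near the same region. The region in an intron of FOSL2 scored 454 and 172, and a second region 65942 bp from FOSL2 scored 127 and 64.8. The region 35510 bp from LIF scored 281 and 159. The regions near SPRY4, EREG and TGFA scored at most 155 in replicate 2 and at most 60.1 in replicate 3. Of these 6 regions, those near LIF, EREG and TGFA overlapped a peak of PC3 replicate 2. Sites that HCT-116 shared with other lines near LIF, FOSL2 and TGFA scored higher in HCT-116. A site of A549 and HCT-116 5392 bp from LIF scored 620 and 217 in HCT-116. The FOSL2 promoter, a site of A549, T47D and HCT-116, scored 539 and 291 there. A site of PC3 and HCT-116 41949 bp from TGFA scored 345 and 138 in HCT-116. No other region was found near SPRY4, EREG and AREG.

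Of 30 listed genes of intestinal epithelial identity, 3 had 1 of the regions within 100 kb (10.0%, 95% interval 2.11 to 26.5), and the interval included the 3.31% of all protein-coding genes. They were KRT8, KRT18 and KLF4, and they involved 2 regions. KRT8 and KRT18 encode the paired keratins of simple epithelia and shared a region in an intron of KRT8 that scored 89.5 and 50.7. The other regions around KRT8 and KRT18 were sites of other lines. The strongest in T47D, a site of A549 and T47D, lay 24508 bp from the nearest TSS and scored 688 and 848 in T47D. The rest were sites of T47D alone. KLF4 encodes a transcription factor of differentiating epithelium, and the region 66717 bp from it scored 134 and 115. Of 24 Wnt/β-catenin target genes, 0 had 1 of the regions within 100 kb, and the 95% interval of that share reached 14.2%. The lists are short, so the intervals of all 4 shares are wide, and no test of a list was made. The gene lists were also chosen with earlier results of these data known. The intervals treat genes as independent, although EREG and AREG shared a region, as did KRT8 and KRT18.

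The regions lay at a median of 33597 bp from the nearest protein-coding TSS (95% interval 26810 to 40213). The farthest lay 1273612 bp away, nearest to GJE1, and 65 of 280 lay within 10 kb. The medians of the distal regions of PC3, T47D and A549 alone were 35848, 40875 and 37521 bp, with intervals that overlapped that of HCT-116. Introns of protein-coding genes held the midpoint of 115 of the 280 regions (41.1%, 35.3 to 47.1), exons held 14 and 151 were intergenic. The intronic share was 41.6% in PC3, 33.4% in T47D and 40.2% in A549. A TSS of a non-coding gene lay within 2 kb of 57 of the 280 regions (20.4%, 15.8 to 25.6), 36 of them of a long non-coding RNA gene. In the other 3 lines this share was between 11.1% and 16.4%. In the distal regions that HCT-116 shared with another line it was 27.5% (97 of 353, 22.9 to 32.5).

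The 2 kb limit fell within a continuous run of distances. The regions just outside it were nearest to PHC2, EREG, KRT18, PCOLCE and PRSS8, at 2133 to 2425 bp, with scores of 89.5 to 165 in replicate 2. The regions of HCT-116 alone just inside it were nearest to TMEM107, GSN, MFSD10, MT1B and ASB2, at 1677 to 1939 bp, with scores of 93.3 to 399.

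All chromosomes but Y held at least 1 of the regions. The largest numbers were 24 on chromosome 2, 22 on chromosome 1, 22 on chromosome 17 and 20 on chromosome 10, and the smallest was 4 on chromosome X. Chromosome 11 held 5 (1.79%), against 17 of the 353 distal regions shared with another line (4.82%), which was not tested.

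Although no other line had a site in these regions, 102 of the 280 (36.4%, 30.8 to 42.4) overlapped a peak in a list of another line, and 178 overlapped none. PC3 replicate 2 contributed most, with peaks in 71 of the regions, and PC3 replicate 1 had a peak in 0. A549 replicate 2 had peaks in 26 and A549 replicate 3 in 7, and T47D replicates 1 and 2 had peaks in 6 and 13. The 71 peaks of PC3 replicate 2 had a median score of 93.4, beside a median of 88.1 over its whole list, and the highest scored 200.4. PC3 replicate 2 held 2891 peaks and PC3 replicate 1 held 1042. With the sites of PC3 taken from replicate 2 alone, 209 of the 280 regions were left.

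The share of regions of a single line with such a peak was 22.7% in PC3, 13.8% in T47D and 30.6% in A549. Among the regions of HCT-116 alone, 82 overlapped peaks of 1 other line, 19 of 2 other lines and 1 of all 3. In 0 regions did a line have peaks of both replicates that missed each other. HCT-116-only binding is thus, for 102 regions, a statement about both replicates of another line together and not about the absence of any peak.

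The HIF core was centred on the regions. It was present in the central 200 bp of 200 of the 280 regions (71.4%, 65.8 to 76.6), against 128 of 560 windows of the same length placed 5 kb to either side (22.9%, 19.4 to 26.6). Anywhere in the region it was present in 271 of 280, with a median of 4 copies in a median width of 1316 bp. The median distance from the midpoint to the nearest copy was 50 bp. By 100 bp bins, the share of regions with a core was 45.0% and 43.2% in the 2 bins at the midpoint and between 12.1% and 19.6% in the bins over 400 bp away. In the windows beside the regions, 81 of 182 copies were ACGTG (44.5%), and in the central windows 185 of 340 were (54.4%, 49.0 to 59.8). A cytosine followed the core in 127 of the 340 copies in the regions (37.4%) and in 32 of the 182 copies beside them (17.6%). The windows beside the regions were not matched to them for base composition, and the effect of composition on these contrasts was not tested.

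Regions with a core in the central window had scores close to those without. The median score was 143 in replicate 2 and 80.0 in replicate 3 for the 200 regions with a core, and 134 and 67.8 for the 80 without, with overlapping intervals. Of the 80 without, 45.0% (33.8 to 56.5) overlapped a peak of another line, against 33.0% (26.5 to 40.0) of the 200 with a core.

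To ask whether the sequence of the regions differed from that of distal regions found in another line alone, 15 motifs were compared in the central 200 bp with each of the 3 lines by Fisher's exact test (two-sided), with Benjamini-Hochberg adjustment over the 45 comparisons. The motifs were chosen with earlier results of these data known, and the adjustment does not cover that choice. The tests compare sets of regions. Regions of a line share its libraries and are not replicates of the line, and 1 line against 3 allows no exact permutation test below p = 0.25. The core was more frequent than in the 580 distal regions of T47D alone (71.4% against 49.3%, odds ratio 2.57, Fisher's exact test, adjusted p = 9.1e-09). The difference from the 238 regions of PC3 alone (65.5%, odds ratio 1.31, adjusted p = 0.27) and from the 386 of A549 alone (65.0%, odds ratio 1.34, adjusted p = 0.23) did not pass the threshold of 0.05 in the same exact test. Both of these comparisons passed it when the sites of the other line rested on its replicate 2 alone, with odds ratios of 2.52 without PC3 replicate 1 and 2.37 without A549 replicate 3. With sites of HCT-116 from a single replicate the direction turned in both, to 0.962 and 0.965 without replicate 2 and to 0.868 and 0.887 without replicate 3, and neither passed.

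Within HCT-116 the core in the central 200 bp showed no detectable difference between classes of region. It was present in 70.8% of the 353 distal regions shared with another line (odds ratio 1.03, adjusted p = 0.93, Fisher's exact test with adjustment over 2 comparisons) and in 72.2% of the 425 promoter regions of HCT-116 alone (odds ratio 0.961, adjusted p = 0.93). The 95% intervals of the shares were 65.8 to 75.5 and 67.7 to 76.4. With sites defined by a single HCT-116 replicate both odds ratios were below 1 and passed the threshold, at 0.709 and 0.665 without replicate 2 and at 0.730 and 0.747 without replicate 3. Over the whole region the core was present in 96.8% of the 280 regions, 99.2% of the shared distal regions and 100% of the promoter regions. Both odds ratios, 0.258 and 0.0336, passed Fisher's exact test (adjusted p = 0.039 and 0.00045).

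AP-1 motifs were far more frequent in the distal regions of HCT-116 than in those of T47D. TGAGTCA was present in the central 200 bp of 79 of the 280 regions (28.2%, 23.0 to 33.9) and in 24 of 580 regions of T47D alone (4.14%), an odds ratio of 9.11 (Fisher's exact test, adjusted p = 4e-21). It was present in 23.5% of the regions of PC3 alone and 24.1% of those of A549 alone, and these differences did not pass the threshold (odds ratios 1.28 and 1.24, exact test, adjusted p = 0.33 and 0.34). The comparison with PC3 passed without PC3 replicate 2 (odds ratio 1.70, exact test, adjusted p = 0.04) and turned to odds ratios of 0.921 without PC3 replicate 1 and 0.983 without HCT-116 replicate 3. The share in windows 5 kb away was 4.46%. Within HCT-116 it was present in 19.8% of the shared distal regions and in 2.12% of the 425 promoter regions of HCT-116 alone. Like the core, it peaked at the midpoint, with 13.6% and 17.9% of the regions in the 2 central bins of 100 bp. The profiles of both motifs around the midpoint show this.

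**Figure D3:**
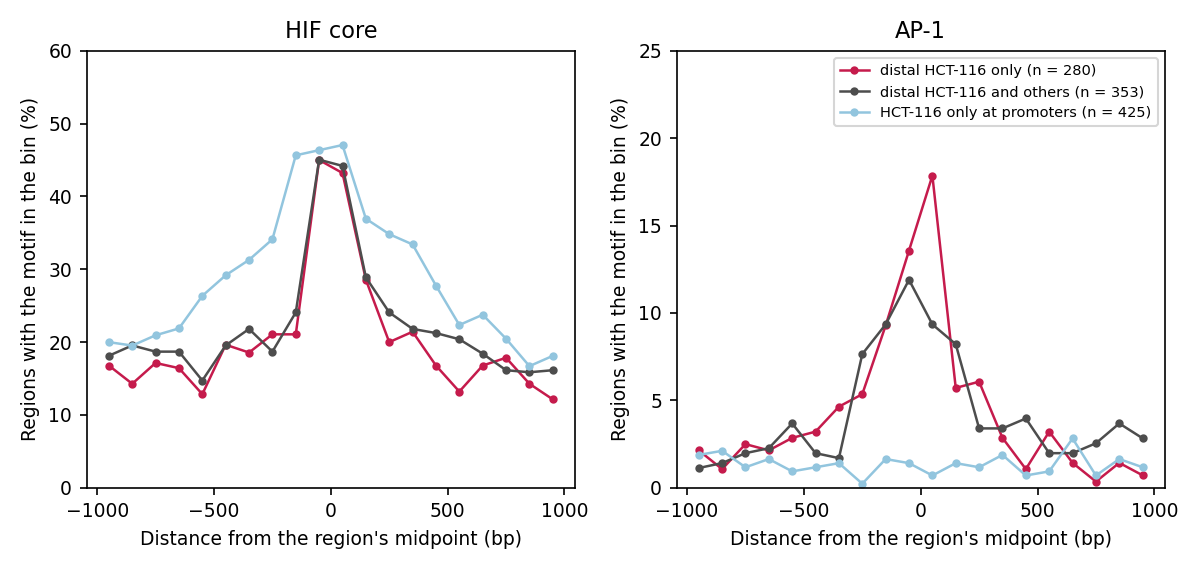
Percentage of regions with a HIF core (left) or an AP-1 motif (right) in bins of 100 bp, by distance of the bin from the region's midpoint (x axis, bp), for the 280 distal regions of HCT-116 alone, the 353 distal regions shared with another line and the 425 promoter regions of HCT-116 alone. Both motifs peak at the midpoint of the distal regions, at 45.0% for the core and 17.9% for AP-1, and the AP-1 share at promoters stays low across the window.

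The share of regions with a core was close in regions with and without an AP-1 motif. Of the 79 regions with an AP-1 motif, 59 (74.7%, 63.6 to 83.8) also had a core in the central window, as did 141 of the 201 without (70.1%, 63.3 to 76.4). The median scores of the regions with and without an AP-1 motif were 138 and 145 in replicate 2 and 74.8 and 80.8 in replicate 3. The motif therefore divided the regions without a visible difference in score.

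TCF/LEF motifs were present in 32 of the 280 regions (11.4%, 7.95 to 15.7). The share was 4.62% in PC3 (odds ratio 2.66, adjusted p = 0.028), 4.66% in T47D (odds ratio 2.64, adjusted p = 0.004) and 6.48% in A549 (odds ratio 1.86, adjusted p = 0.11, which did not pass), by Fisher's exact test. In the windows 5 kb beside the regions the share was 7.32% (5.30 to 9.80), and the interval overlapped that of the regions. Within HCT-116 the share was 6.23% (3.95 to 9.28) of the 353 shared distal regions and 3.06% of the 425 promoter regions of HCT-116 alone, which was not tested. Both calls were lost in a central window of 100 or 400 bp, in the whole region, among the higher-scoring 50% of each list and with sites from HCT-116 replicate 3 alone, with adjusted p from 0.057 to 0.45. The comparison with A549 passed the same exact test without A549 replicate 3 (adjusted p = 0.038) and without HCT-116 replicate 3 (adjusted p = 0.048). Of the 32 regions, 6 (18.8%, 7.21 to 36.4) overlapped a peak of another line, against 38.7% of the 248 without the motif.

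The GC box GGGCGG, which SP and KLF proteins bind, was present in 63 of the 280 regions (22.5%, 17.7 to 27.8). It was less frequent in PC3 (6.72%, odds ratio 4.03, adjusted p = 3.9e-06), T47D (13.1%, odds ratio 1.93, adjusted p = 0.0055) and A549 (5.70%, odds ratio 4.80, adjusted p = 5.8e-09) by the same exact test. The call against T47D was lost among the higher-scoring 50% of each list (odds ratio 1.52, exact test, adjusted p = 0.36) and without HCT-116 replicate 2 (odds ratio 1.63, adjusted p = 0.051). Within HCT-116 the shared distal regions had a similar share, 19.3% (15.3 to 23.8) of 353. The regions were also richer in GC than the distal regions of the other lines alone. Their median GC content in the central 200 bp was 55.5% (53.5 to 57.0), against 48.5% in PC3, 51.5% in T47D and 49.0% in A549, and the median of the shared distal regions of HCT-116 was 56.0% (54.5 to 57.5). Within regions of 45 to 60% GC, a range chosen after seeing the data, the share with a GC box was 9.09% of 143 regions of HCT-116 and between 4.55% and 6.93% in the other lines, and none of the 3 comparisons passed Fisher's exact test (adjusted p = 0.46 to 0.78). In the same range the HIF core and AP-1 kept their differences from T47D, with odds ratios of 2.85 and 10.9, and TCF/LEF passed against all 3 lines, with odds ratios from 3.22 to 6.21 and adjusted p from 0.00015 to 0.042.

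**Figure D4:**
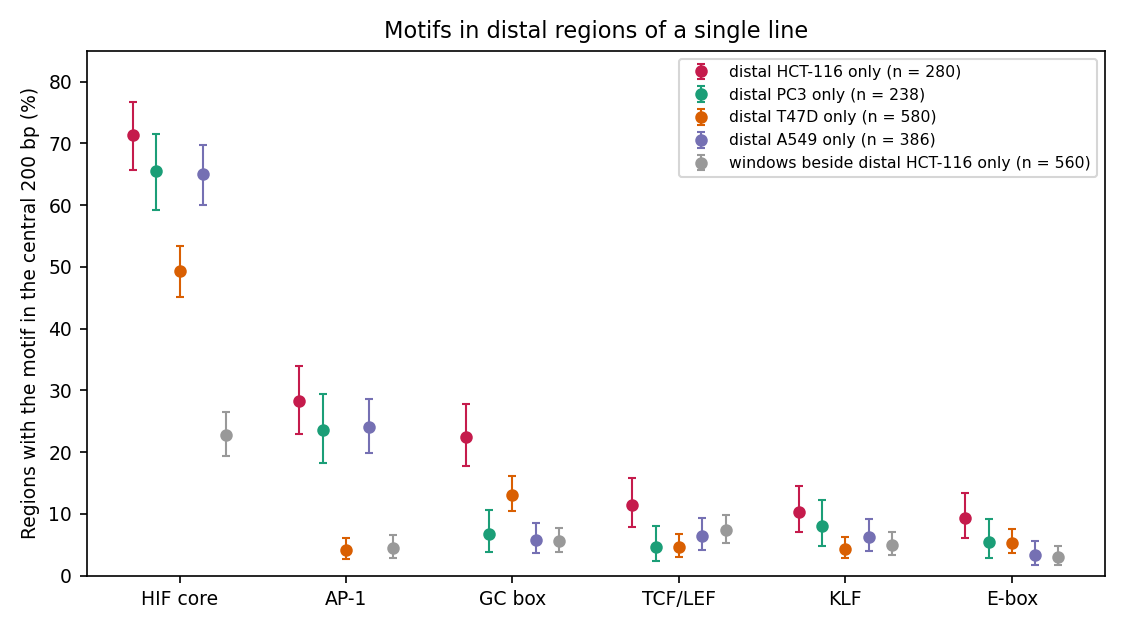
Percentage of regions with each motif in the central 200 bp (y axis) for the distal regions of a single line and for windows of the same length 5 kb beside the HCT-116 regions, with exact 95% binomial intervals as bars. The share with an AP-1 motif is near 28% in HCT-116 and near 4% in T47D, and the shares in PC3 and A549 overlap that of HCT-116.

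Of the 42 comparisons of motifs other than the HIF core, 9 passed the threshold, and in all 9 the motif was more frequent in the HCT-116 regions. Besides AP-1 against T47D, TCF/LEF against 2 lines and the GC box against 3, they were the KLF motif GGGTGTG against T47D (10.4% against 4.31%, adjusted p = 0.0089), the E-box CACGTG against A549 (9.29% against 3.37%, adjusted p = 0.011) and the CTCF motif AGNGGGCGC against A549 (7 of 280 regions against 0 of 386, adjusted p = 0.011), all by Fisher's exact test. Within 45 to 60% GC these 3 calls were lost (exact test, adjusted p = 0.087 for KLF and 0.46 for both the E-box and CTCF). The 353 distal regions that HCT-116 shared with another line had similar shares of the 3 motifs. These were 11.9% for KLF, 8.22% for the E-box and 3.12% for CTCF, which was not tested. Every E-box contains the HIF core, so its call is not independent of it. The CTCF motif contains GGGCG and rests on 7 regions. The motifs of the gut transcription factors CDX (GCNATAAA) and HNF4 (CAAAGTCCA or CAAAGTTCA) were present in 8 and 0 of the 280 regions and differed from no line at the threshold. The motifs of FOXA (TGTTTAC) and of the GATA family (AGATAA), pioneer factors of breast epithelium, were present in 3.57% and 7.14% of the regions and in 7.41% and 12.4% of those of T47D alone (exact test, adjusted p = 0.11 and 0.07). CRE (TGACGTCA), ETS (CCGGAAG), TEAD (CATTCCA) and RUNX (TGTGGTT) passed against no line either.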

How the data were processed

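The 8 peak lists of a HIF-1β ChIP-seq experiment in HCT-116, PC3, T47D and A549 cells (2 replicates each, 0.5% oxygen for 16 h) were analysed. Per the labels and methods, the authors trimmed reads with Trim Galore 0.3.3, aligned them to GRCh37 (hg19) with BWA 0.7.5a-r405, processed them with SAMtools 0.1.19, Picard 1.106 and bedtools 2.17.0, and called peaks with MACS in each library. The MACS version and its control are not given in the sources used here, and a T-PIC filter that the methods name cannot be seen in the lists. The deposited score of each peak was used as given; the lists carry no read counts, so the depth of each library is unknown and intervals cover counting error only.

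The 280 members and the gene and motif lists were chosen with earlier results of these data known. Peaks were merged and compared with GENCODE 44 (lifted to GRCh37), using the TSS of the protein-coding transcripts of protein-coding genes, in Python 3 with SciPy and pysam. Motifs were counted on both strands of the central 200 bp. Shares have exact 95% binomial (Clopper-Pearson) intervals, medians exact order-statistic intervals, and motif shares were compared by two-sided Fisher's exact tests with Benjamini-Hochberg adjustment; the replicate numbers enter no test. The scripts were tested on simulated data. The genes named were those nearest to the 20 highest mean scores, listed genes within 100 kb of a member, genes nearest to groups of 3 or more members within 50 kb of each other, and those nearest to the 2 kb limit. A listed gene and some sequences are not reported here.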

Additional observations from a re-analysis of the deposited data

How the results depend on the processing

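Of 320 values recomputed under 23 alternatives, 257 kept their direction and side of the threshold or stayed within the limits set for a value without a test. The number of regions was 144 with the higher-scoring 50% of each list, 644 with a peak of either replicate and 178 with no peak of any library of another line, and 209 to 843 when 1 replicate was left out, the highest without HCT-116 replicate 3. With 1 TSS per protein-coding gene it was 349, and with every transcript of these genes 256 (both added after seeing the data). The share with a HIF core was 46.8% in the central 100 bp, 85.4% in 400 bp, 96.8% in the whole region, 65.7% around the midpoint of the HCT-116 replicate 3 peak, 76.9% within 45 to 60% GC (also added after seeing the data) and 61.8% to 72.7% leaving out 1 replicate. Its odds ratio against A549 passed the threshold with no peak of another line (1.73) and over the whole region (2.63), and ranged from 0.887 to 2.37 leaving out 1 replicate; against PC3 it ranged from 0.868 to 2.52, and both turned direction when either HCT-116 replicate was left out. Against shared distal regions the odds ratio turned direction in the central 100 bp (0.855), in 400 bp (0.917) and in the whole region (0.258), and leaving out 1 replicate gave 0.709 to 1.16, turned without HCT-116 replicate 2 (0.709) or 3 (0.730), PC3 replicate 2 (0.949) or T47D replicate 2 (0.989). Against promoter regions of HCT-116 alone it was 0.0336 over the whole region and turned to 1.28 with the higher-scoring 50%, 1.04 with no peak of another line and 1.41 within 45 to 60% GC, and leaving out 1 replicate gave 0.665 to 1.02, turned without T47D replicate 1. The AP-1 odds ratio against PC3 ranged from 0.921 to 1.70 leaving out 1 replicate and turned to 0.921 without PC3 replicate 1 and 0.983 without HCT-116 replicate 3. The number of other motif comparisons past the threshold was 3 with the higher-scoring 50%, 4 in the central 100 bp, 16 in the whole region, 4 within 45 to 60% GC and 7 to 16 leaving out 1 replicate. The median distance was 12697 bp to TSS of every biotype, the intronic share 32.9% when any exon overlap counted, and the median of the mean score, 110.4, was 77.3 to 142.4 by single replicates. Apart from the windows and sets that change by construction, the cause was not tested. No paired analysis was possible because each value is a share or count over regions defined by both replicates together, so a replicate number enters no test.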
